A study of Mus musculus with 10 samples.

Results

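The unfolded protein response is the set of signals by which a cell matches the folding capacity of its endoplasmic reticulum (ER) to the load of new secretory and membrane proteins. Total RNA sequencing of inguinal subcutaneous white fat was used to follow 33 of its genes, out of 24421 gene symbols counted. They were chosen by name, as sensors and transcription factors, genes of the ATF4 and CHOP arm, ER chaperones and folding enzymes, ER-associated degradation genes and translocon genes, and all 33 passed the filter on low counts. Samples came from wild-type (WT) C57BL/6J mice, whose fat pad was taken at day 70. The FLASH group (4 libraries) had received 33.3 Gy of electrons to the left hindlimb at ultra-high dose rate, from an ElectronFlash linear accelerator. The CONV group (3 libraries) had received the same 33.3 Gy at conventional dose rate, and the sham group (3 libraries) was not irradiated. All libraries carry the label of 1 batch. Separate mice are not stated for the libraries, so p-values measure the spread between these samples, which may be technical.

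The sensors sit in the ER membrane. The kinase and RNase encoded by Ern1 splices Xbp1 mRNA into the form that encodes an active factor, the kinase PERK (Eif2ak3) phosphorylates a translation initiation factor and so favours translation of Atf4, and ATF6 is cut in the Golgi to release a transcription factor. These factors switch on chaperones, disulfide isomerases and degradation genes, and ATF4 together with CHOP (Ddit3) switches on amino acid and feedback genes. Adipocytes secrete large amounts of adipokines, and plasma cells, the antibody-secreting form of B cells, are the textbook case of a cell that expands its ER through Xbp1. Counts per gene measure neither the splicing of Xbp1 nor the translation of Atf4.

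The promoters of the members were searched for the known binding letters of these factors. The ER stress response element (ERSE), bound by ATF6 with the factor NF-Y, was searched as CCAAT and CCACG with 9 bases between them, and the related ERSE-II as ATTGG and CCACG with 1 base between them. Searched on both strands of the windows from 250 bases before to 50 bases after each start, ERSE was found in 9 of the 29 members with a promoter in the RefSeq table (GRCm38.p6) and in 0.119% of all 32851 promoters. ERSE-II was found in 2 members and in 0.0365% of all promoters. The C/EBP-ATF response element (CARE), searched as TGATGNAA, was found in 4 members and in 3.97% of all promoters, and the core of the unfolded protein response element, searched as TGACGTGG, in 0 members and in 0.676% of all promoters. The motifs share letters, and a match of letters is a description of the sequence only. The ERSE copies are shown because ERSE was the motif found in most members, each read along the motif's own strand, with its fixed letters in capitals and the spacer in lower case.
Hspa5, chr2:34772025-34772043: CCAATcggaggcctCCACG
Hsp90b1, chr10:86705533-86705551: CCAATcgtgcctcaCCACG
Hsp90b1, chr10:86705638-86705656: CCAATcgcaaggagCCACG
Calr, chr8:84847075-84847093: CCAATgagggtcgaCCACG
Canx, chr11:50325800-50325818: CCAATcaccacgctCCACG
Dnajc3, chr14:118937827-118937845: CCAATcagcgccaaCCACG
Pdia6, chr12:17266491-17266509: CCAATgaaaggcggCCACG
Creld2, chr15:88819520-88819538: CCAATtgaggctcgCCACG
Syvn1, chr19:6046532-6046550: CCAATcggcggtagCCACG
Derl3, chr10:75893242-75893260: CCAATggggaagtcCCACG

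All of these copies lie before the RefSeq start, from 212 bases before it in Hsp90b1 to 26 bases before it in Syvn1. Of the 9 genes, Hspa5, Calr and Creld2 stood higher in every CONV library than in every sham library, as did 12 of the 33 members and 8.58% of all genes tested, and in the other 6 the CONV and sham libraries overlapped. Whole promoter windows are given for Hspa5 as the main ER chaperone, for Hsp90b1 with its 2 copies, for Herpud1 with ERSE-II and for Trib3 with CARE, 5′ to 3′ along the gene, with the fixed letters of every match in capitals. Hspa5 lies on the plus strand and its window holds ERSE 65 to 47 bases before the RefSeq start. The GENCODE annotation starts the gene before this copy, at position 34771970. Hsp90b1 lies on the minus strand. Herpud1 (plus strand) holds both CARE, on the opposite strand, and ERSE-II, 52 to 42 bases before the start. Trib3 (minus strand) holds CARE on the opposite strand, 15 to 22 bases after the RefSeq start. The GENCODE annotation starts Trib3 at position 152344032, which places this CARE before the start. The Trib3 window is among those that matched no transcript.
Hspa5, chr2:34771840-34772139: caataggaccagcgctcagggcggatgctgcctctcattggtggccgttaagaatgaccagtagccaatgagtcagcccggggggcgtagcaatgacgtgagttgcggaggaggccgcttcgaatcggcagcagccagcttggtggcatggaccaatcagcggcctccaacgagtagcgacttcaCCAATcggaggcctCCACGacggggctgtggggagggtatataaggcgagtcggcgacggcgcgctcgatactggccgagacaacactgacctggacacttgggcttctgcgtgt
Hsp90b1, chr10:86705395-86705694: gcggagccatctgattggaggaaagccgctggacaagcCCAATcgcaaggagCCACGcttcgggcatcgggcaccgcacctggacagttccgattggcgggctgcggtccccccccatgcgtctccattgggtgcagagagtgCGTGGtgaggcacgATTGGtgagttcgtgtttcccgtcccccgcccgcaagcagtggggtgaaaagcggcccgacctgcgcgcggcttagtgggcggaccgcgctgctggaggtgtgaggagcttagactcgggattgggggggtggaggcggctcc
Herpud1, chr8:94386179-94386478: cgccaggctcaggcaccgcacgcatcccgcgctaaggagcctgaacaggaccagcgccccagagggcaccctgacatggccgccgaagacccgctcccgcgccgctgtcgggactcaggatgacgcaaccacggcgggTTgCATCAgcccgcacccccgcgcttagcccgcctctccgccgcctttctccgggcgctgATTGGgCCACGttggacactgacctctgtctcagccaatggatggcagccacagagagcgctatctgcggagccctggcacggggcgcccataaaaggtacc
Trib3, chr2:152344011-152344310: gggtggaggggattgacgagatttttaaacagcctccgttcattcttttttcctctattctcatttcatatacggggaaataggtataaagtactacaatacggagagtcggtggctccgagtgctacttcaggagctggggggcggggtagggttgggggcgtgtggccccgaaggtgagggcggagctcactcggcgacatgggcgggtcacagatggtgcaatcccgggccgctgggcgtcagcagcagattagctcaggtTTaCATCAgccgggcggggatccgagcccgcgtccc

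Counts given to genes ranged between 22387877 and 36032027 per library, and values below are CPM, counts scaled to a common library size with TMM factors, with the SD between libraries. The level worth 3 counts was 0.0909 to 0.116 CPM, a limit for counting error alone. The fat identity of the samples was checked with 9 adipocyte markers, all detected in every library, whose summed level was 15228 to 20805 CPM in FLASH replicates 1, 2 and 4, 16381 and 20972 CPM in CONV replicates 1 and 3 and 15645 to 19674 CPM in sham. The sum was 3786 CPM in FLASH replicate 3 and 3065 CPM in CONV replicate 2. These 2 libraries stood apart by lymphocyte transcripts: 10 B cell markers summed to 2240 and 2650 CPM there, against 8.63 to 22.7 CPM in the other 8 libraries, and Glycam1 of lymph node venules reached 36.9 and 144 CPM, with a count of 0 in all sham libraries. Plasma cell markers separated the pair further. Jchain, the joining chain of secreted antibody, reached 261 CPM in the FLASH library of the pair and 1241 CPM in its CONV library, and Mzb1, a plasma cell ER cochaperone, at 29.1 and 209 CPM. Each comparison is therefore given with all 10 libraries and with 8 libraries, without this pair. In bulk tissue, fewer cells of a type and less RNA per cell cannot be told apart.

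Per kilobase of annotated exon, the levels of the members in sham fat spanned from 145 CPM per kb for Calr to 0.151 CPM per kb for Derl3. The abundant end held chaperones, with Hsp90b1 at 87.4, Hspa5 at 75.5, Canx at 74.9 and Pdia3 at 66.3 CPM per kb. The factor Xbp1 (48.2 CPM per kb) and the factor Atf4 (33.2 CPM per kb) were well above the sensors, of which Atf6 had 11.1, Eif2ak3 6.93 and Ern1 3.86 CPM per kb. In the ATF4 and CHOP arm Asns stood at 25.4, Trib3 at 3.46, Ppp1r15a at 2.98, Ddit3 at 2.82 and Chac1 at 2.76 CPM per kb.

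**Figure D1:**
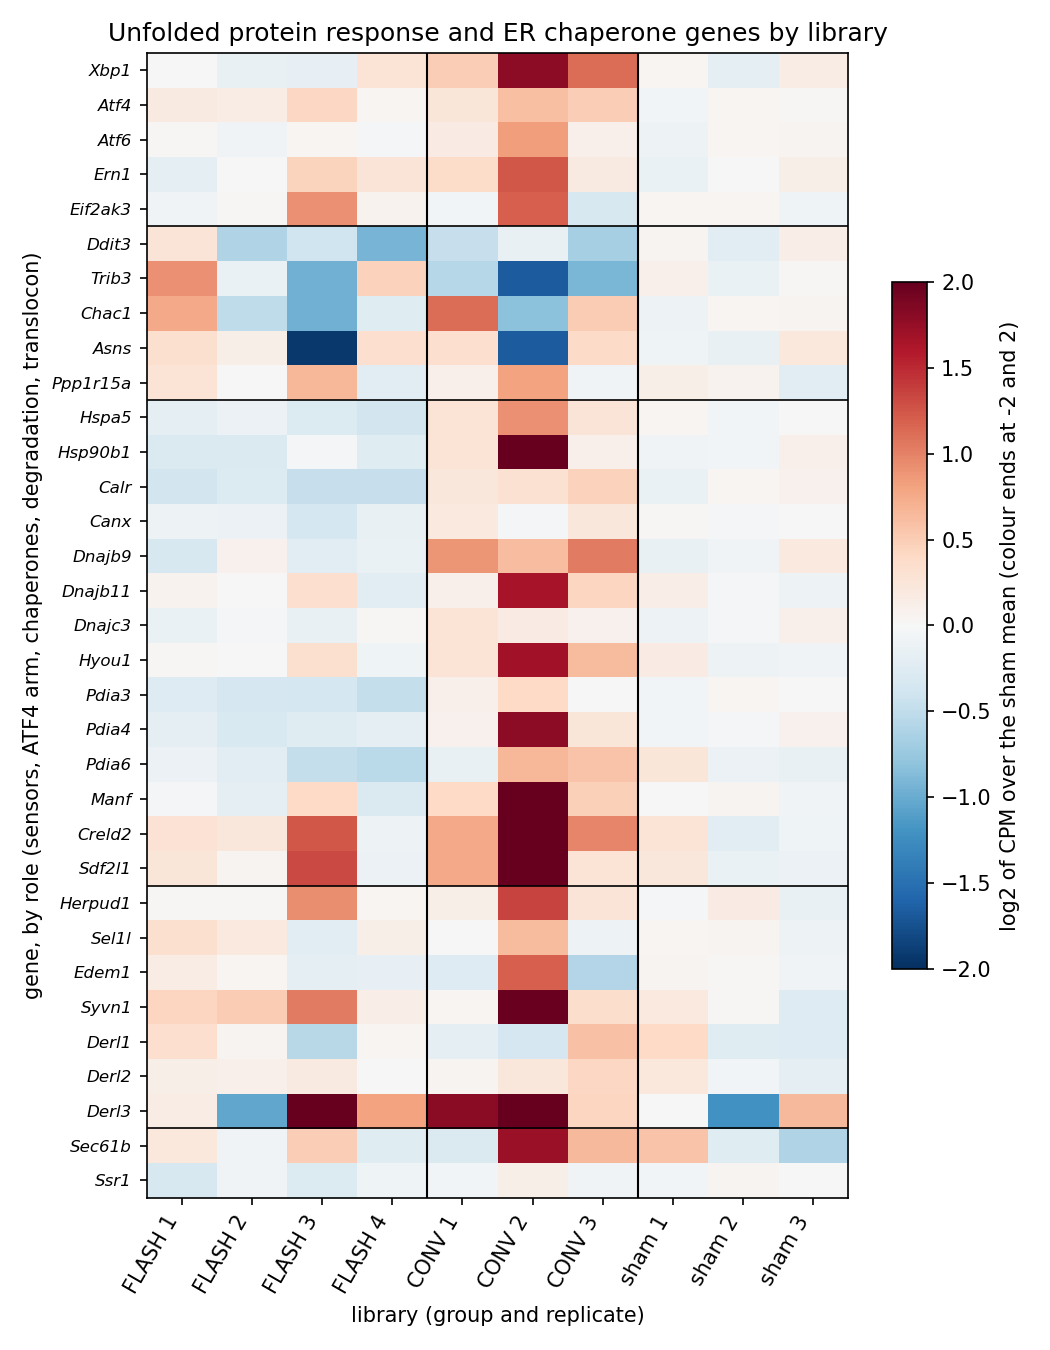
Each row is 1 of the 33 genes and each column 1 library, with FLASH at the left, CONV in the middle and sham at the right. Colour gives log2 of CPM over the sham mean and ends at −2 and 2. CONV replicate 2 has 15 genes over 1 log2 unit above the sham mean, and CONV replicates 1 and 3 have 2 each. The share of all genes was not counted.

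The first comparison, CONV against sham, asks how the family stood at day 70 after conventional irradiation. Most members stood higher in CONV, led by the cochaperone Dnajb9, the factor Xbp1, Creld2, Hyou1 and Manf, but none passed over all genes in edgeR. With 10 libraries 30 of 33 members had a positive log2 fold change (median 0.45), against 56.9% of all 15266 genes tested (median 0.08). Every CONV library lay above every sham library for 12 members, where 8.58% of all genes did so, and below for 1 member (9.11% of all genes). EdgeR called 0 of 33 members (0% of all genes), 13 members had an unadjusted p under 0.05, all higher (5.82% of all genes, 3.46% higher and 2.36% lower), DESeq2 called 2 (0.432% of all genes) and limma voom 0. With 8 libraries 26 members were positive (51.3% of all genes) and the median was 0.23, against 0.01 over all genes. There 15 members lay wholly above sham (13.0% of all genes) and 4 wholly below (13.2%), edgeR called 0 members (0.0393% of all genes) with 8 higher and 2 lower at an unadjusted p under 0.05 (13.3%, with 7.02% higher and 6.24% lower), DESeq2 called 3 (4.33%) and limma voom 0.

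Dnajb9, an ER-resident J protein that works with BiP and is a known target of spliced XBP1, stood at 31.8, 42.2, 34.1 and 36.1 CPM in FLASH replicates 1 to 4, at 73.2, 60.7 and 81.8 CPM in CONV replicates 1 to 3 and at 35.99, 37.8 and 45.5 CPM in sham replicates 1 to 3. All CONV libraries lay above all FLASH and sham libraries, and the lymphocyte-rich CONV library was the lowest of the 3. CONV was 1.81-fold sham with 10 libraries (log2 fold change 0.85 ± 0.18 SE, edgeR adjusted p = 0.607) and 1.92-fold with 8 libraries (0.94 ± 0.16, edgeR adjusted p = 0.0924). DESeq2 called the gene in both sets, with adjusted p = 0.00734 and 8.79e-05. The 7 skeletal muscle markers summed to 1614 CPM in CONV replicate 1 and 1.51 CPM in CONV replicate 3, and the 7 macrophage markers to 1894 and 681 CPM, and their part in the Dnajb9 values was not tested.

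Xbp1 stood at 157, 141, 140 and 189 CPM in FLASH, at 221, 539 and 341 CPM in CONV and at 161, 136 and 173 CPM in sham. CONV lay wholly above both other groups, with its highest value in the plasma-marker-rich replicate 2. CONV averaged 367 ± 161 CPM and sham 157 ± 18.5 CPM, a log2 fold change of 1.23 ± 0.31 (edgeR adjusted p = 0.607, DESeq2 adjusted p = 0.0357). With 8 libraries it was 0.83 ± 0.21 (edgeR adjusted p = 0.165, DESeq2 adjusted p = 0.0149).

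Atf4 stood at 88.2, 87.1, 105 and 80.3 CPM in FLASH, at 92.1, 118 and 110 CPM in CONV and at 75.2, 80.1 and 79.3 CPM in sham. The lowest CONV library lay above the highest sham library, and the highest FLASH library lay among the CONV values. The log2 fold change of CONV against sham was 0.45 ± 0.16 with 10 libraries and 0.35 ± 0.11 with 8 (edgeR adjusted p = 0.607 and 0.239). Among the sensors, Atf6 stood at 115, 184 and 110 CPM in CONV and at 95.7 to 106 CPM in sham, and Ern1 at 40.7, 74.9 and 35.9 CPM in CONV and at 28.8 to 34.1 CPM in sham. Both had their highest value in CONV replicate 2 and did not overlap with sham. Eif2ak3 differed from them, with 40.3 and 33.4 CPM in CONV replicates 1 and 3 and 95.2 CPM in replicate 2, against 39.5 to 42.9 CPM in sham.

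**Figure D2:**
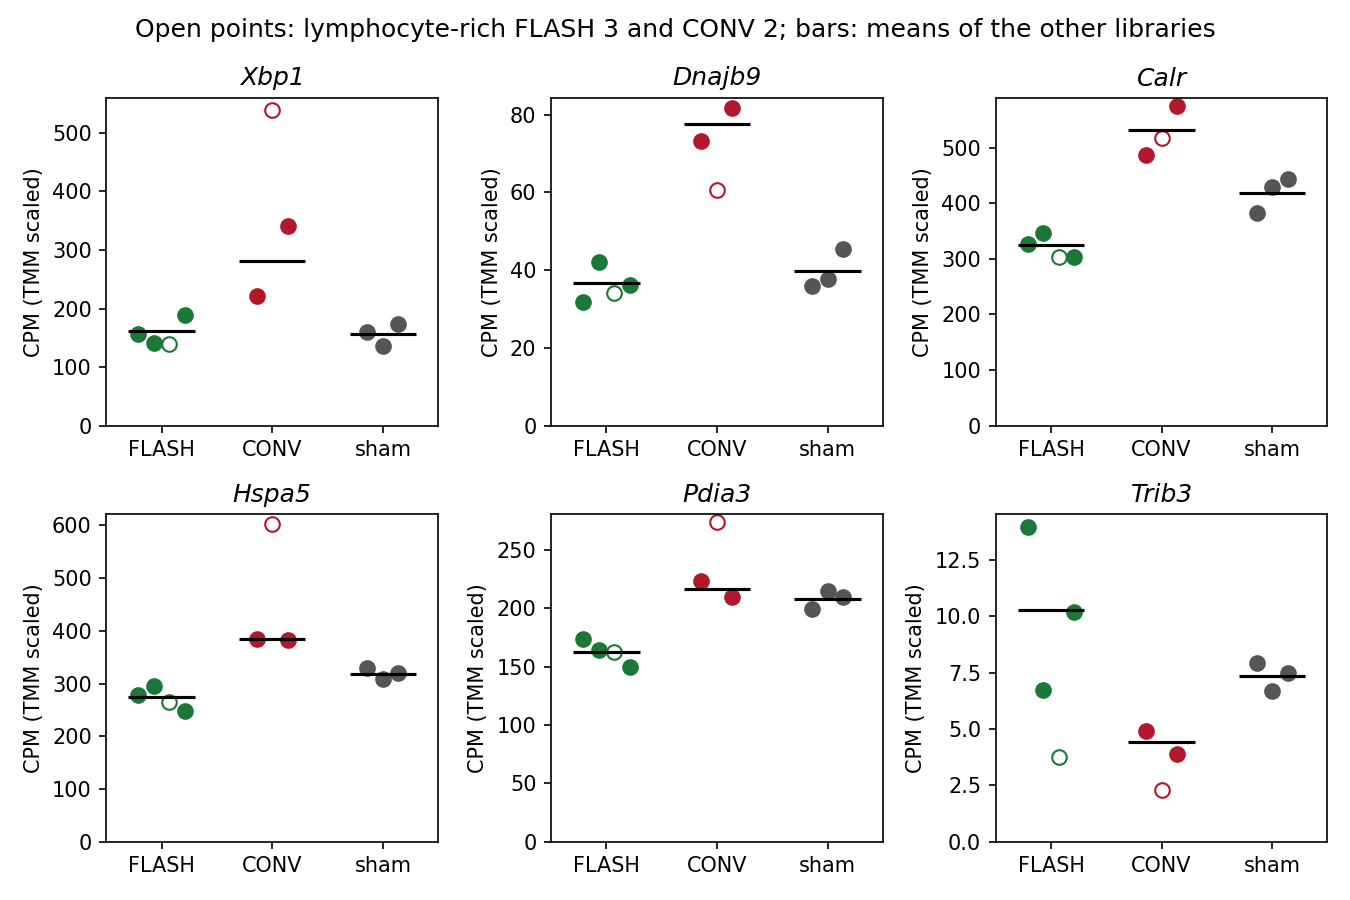
Points are CPM of single libraries in FLASH, CONV and sham for 6 genes, with the vertical axes starting at 0. Open points are the lymphocyte-rich FLASH replicate 3 and CONV replicate 2, and bars are means of the other libraries. Dnajb9 in CONV lies between 60.7 and 81.8 CPM and Calr between 487 and 575 CPM, above all FLASH and sham points.

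The 14 chaperones and folding enzymes all had positive log2 fold changes in CONV against sham, with a median of 0.87 with 10 libraries and 0.25 with 8. EdgeR called 0 of them in either set, and 9 and 5 had an unadjusted p under 0.05, against 5.82% and 13.3% of all genes. DESeq2 called Dnajb9 with 10 libraries (0.432% of all genes), and Dnajb9 and Creld2 with 8 (4.33%). Hspa5, which encodes BiP, the main ER chaperone, stood at 279, 296, 265 and 248 CPM in FLASH, at 386, 603 and 384 CPM in CONV and at 329, 308 and 320 CPM in sham. The 3 groups did not overlap, with FLASH lowest and CONV highest. In CONV against sham the log2 fold change was 0.52 ± 0.22 with 10 libraries and 0.25 ± 0.12 with 8 (edgeR adjusted p = 0.607 and 0.419).

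Creld2, a small ER-resident protein induced by ER stress, stood at 5.88, 5.64, 11.4 and 4.48 CPM in FLASH, at 8.17, 62.4 and 9.49 CPM in CONV and at 5.83, 4.10 and 4.54 CPM in sham. All CONV libraries lay above sham, and replicate 2 was 12.9-fold the sham mean where replicates 1 and 3 were 1.69-fold and 1.97-fold. The log2 fold change was 2.47 ± 0.77 with 10 libraries and 0.85 ± 0.22 with 8 (edgeR adjusted p = 0.607 and 0.165, DESeq2 adjusted p = 0.0197 with 8, and none given by DESeq2 with 10). Manf, a secreted ER stress protein, stood at 24.1, 21.4, 32.2 and 19.9 CPM in FLASH, at 32.2, 119 and 34.1 CPM in CONV and at 24.5, 25.5 and 23.4 CPM in sham. CONV replicates 1 and 3 lay above all sham libraries, and FLASH replicate 3 reached the level of CONV replicate 1. Manf had 1.34 ± 0.48 with 10 libraries and 0.42 ± 0.12 with 8 (edgeR adjusted p = 0.607 and 0.211).

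Hyou1, the nucleotide exchange factor of BiP, stood at 81.5, 80.4, 100 and 75.9 CPM in FLASH, at 97.1, 259 and 125 CPM in CONV and at 89.9, 75.0 and 76.8 CPM in sham. CONV lay above sham in every library, while FLASH and CONV overlapped through FLASH replicate 3. Its log2 fold change was 0.99 ± 0.33 with 10 libraries and 0.44 ± 0.14 with 8 (edgeR adjusted p = 0.607 and 0.234). Hsp90b1, the ER member of the HSP90 family, stood at 290, 287, 346 and 298 CPM in FLASH, at 425, 1399 and 376 CPM in CONV and at 337, 341 and 379 CPM in sham. CONV and sham overlapped, and CONV replicate 2 alone was 3.97-fold the sham mean. Pdia4, a disulfide isomerase, was also highest in CONV replicate 2, and its lowest CONV library lay just above its highest sham library, with 104, 95.3, 100 and 104 CPM in FLASH, 126, 409 and 139 CPM in CONV and 114, 115 and 125 CPM in sham.

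Other chaperones differed in whether CONV replicate 2 stood out. Dnajb11, a J protein that binds unfolded clients, had 29.3 and 36.7 CPM in CONV replicates 1 and 3 and 85.2 CPM in replicate 2, against 25.3 to 29.7 CPM in sham. Sdf2l1, its partner in the ER lumen, had 5.41 and 3.86 CPM in replicates 1 and 3 and 33.7 CPM in replicate 2, against 2.93 to 3.74 CPM in sham. The lectin chaperone Canx went the other way, with 342 CPM in CONV replicate 2 and 401 and 413 CPM in replicates 1 and 3, against 345 to 357 CPM in sham. Dnajc3, a J protein that restrains PERK, spanned 153 to 173 CPM in CONV and 135 to 155 CPM in sham.

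In the ATF4 and CHOP arm no common direction was seen, with 2 of 5 genes positive and a median log2 fold change of −0.05 with 10 libraries. With 8 libraries 2 were positive, and log2 fold changes ran from −0.75 to 0.83. There 2 lay wholly above sham (13.0% of all genes) and 2 wholly below (13.2%). Ddit3, which encodes CHOP, stood at 5.75, 3.18, 3.67 and 2.53 CPM in FLASH, at 3.49, 4.36 and 3.05 CPM in CONV and at 5.04, 4.17 and 5.28 CPM in sham. Groups overlapped with 10 libraries, and the log2 fold change of CONV against sham was −0.41 ± 0.35 (edgeR adjusted p = 0.637). Without the pair CONV lay wholly below sham for Ddit3. Trib3, a pseudokinase induced by ATF4 and CHOP that restrains AKT signalling, stood at 13.9, 6.73, 3.78 and 10.2 CPM in FLASH, at 4.93, 2.31 and 3.90 CPM in CONV and at 7.93, 6.67 and 7.46 CPM in sham. With 10 libraries Trib3 was the member that lay wholly lower in CONV than in sham, while FLASH overlapped with both. With 8 libraries 4 members lay wholly lower (13.2% of all genes), namely Trib3, Ddit3, Edem1 and Ssr1. For Trib3 the log2 fold change of CONV against sham was −0.98 ± 0.47 with 10 libraries and −0.75 ± 0.30 with 8 (edgeR adjusted p = 0.607 and 0.335).

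Chac1, which degrades glutathione and is another ATF4 target, stood at 9.83 and 6.40 CPM in CONV replicates 1 and 3 and 2.55 CPM in replicate 2, against 4.22 to 4.71 CPM in sham. Asns, asparagine synthetase, was low in the lymphocyte-rich libraries, with 18.2 CPM in FLASH replicate 3 and 21.9 CPM in CONV replicate 2. It had 75.5 to 87.4 CPM in the other FLASH libraries, 88.1 and 91.1 CPM in the other CONV libraries and 62.9 to 80.2 CPM in sham. Ppp1r15a, the feedback subunit that restores translation, spanned 8.31 to 15.3 CPM in CONV and 7.56 to 9.48 CPM in sham. The exons of Ddit3 overlap those of Mars on the opposite strand by 68 bases, so its low values are uncertain without the strand used for counting. Exons of Eif2ak3, Ppp1r15a, Hsp90b1, Dnajb9, Pdia3, Pdia6, Manf, Syvn1 and Derl2 also overlap an annotated gene on the opposite strand. The overlap is 485 bases in Eif2ak3 and 14 bases in Dnajb9. The same limit holds for them, to an extent that was not measured. The overlapping gene had 0 CPM in all 10 libraries for Dnajb9 (Mir5627) and 0 to 0.363 CPM for Ppp1r15a (Tulp2). It had 16.9 to 29.4 CPM for Syvn1 (Mrpl49).

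Genes of ER-associated degradation, which ferries misfolded proteins out to the proteasome, overlapped between CONV and sham with 10 libraries. All 7 were positive with 10 libraries (median 0.33) and 5 with 8 (median 0.19). Herpud1, a scaffold of the degradation complex, stood at 50.5, 50.2, 94.1 and 51.1 CPM in FLASH, at 53.7, 127 and 59.3 CPM in CONV and at 48.6, 55.2 and 44.6 CPM in sham. Its high values were those of the lymphocyte-rich pair, and the log2 fold change of CONV against sham was 0.69 ± 0.37 with 10 libraries and 0.17 ± 0.12 with 8 (edgeR adjusted p = 0.607 and 0.583). Syvn1, the ubiquitin ligase HRD, stood at 61.5, 65.0, 94.8 and 50.4 CPM in FLASH, at 47.3, 180 and 58.7 CPM in CONV and at 52.3, 46.9 and 38.6 CPM in sham, again highest in the pair. Edem1, a lectin that hands glycoproteins to the degradation machinery, had 208 and 167 CPM in CONV replicates 1 and 3 and 567 CPM in replicate 2, against 236 to 259 CPM in sham. Without replicate 2 it lay wholly below sham, as 13.2% of all genes did with 8 libraries. Its log2 fold change was therefore 0.33 ± 0.41 with 10 libraries and −0.43 ± 0.15 with 8 (edgeR adjusted p = 0.725 and 0.264). Sel1l, the adaptor of Syvn1, spanned 182 to 304 CPM in CONV and 182 to 203 CPM in sham, Derl1 spanned 112 to 212 CPM and 118 to 186 CPM, and Derl2 spanned 43.0 to 54.9 CPM and 36.1 to 47.7 CPM.

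Derl3, a derlin of secretory cells, showed the widest range of the family. It stood at 0.333, 0.146, 5.13 and 0.525 CPM in FLASH, at 1.06, 70.5 and 0.405 CPM in CONV and at 0.304, 0.130 and 0.471 CPM in sham. CONV replicate 2 was 234-fold and FLASH replicate 3 was 17.03-fold the sham mean, which itself rests on 4 to 14 counts per library. The log2 fold change of CONV against sham was 6.30 ± 2.23 with 10 libraries and 1.26 ± 0.71 with 8 (edgeR adjusted p = 0.607 and 0.492). Of the translocon genes, Sec61b, a subunit of the channel, had 11.7, 47.4 and 22.4 CPM in CONV and 9.45 to 21.2 CPM in sham. Ssr1, a subunit of the translocon-associated complex, stood at 165, 197, 172 and 196 CPM in FLASH, at 200, 225 and 198 CPM in CONV and at 201, 215 and 207 CPM in sham. With 10 libraries CONV and sham overlapped for both, and FLASH lay just below the other groups for Ssr1. Without the pair CONV lay wholly below sham for Ssr1, by 200.3 against 200.6 CPM at the nearest libraries.

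**Figure D3:**
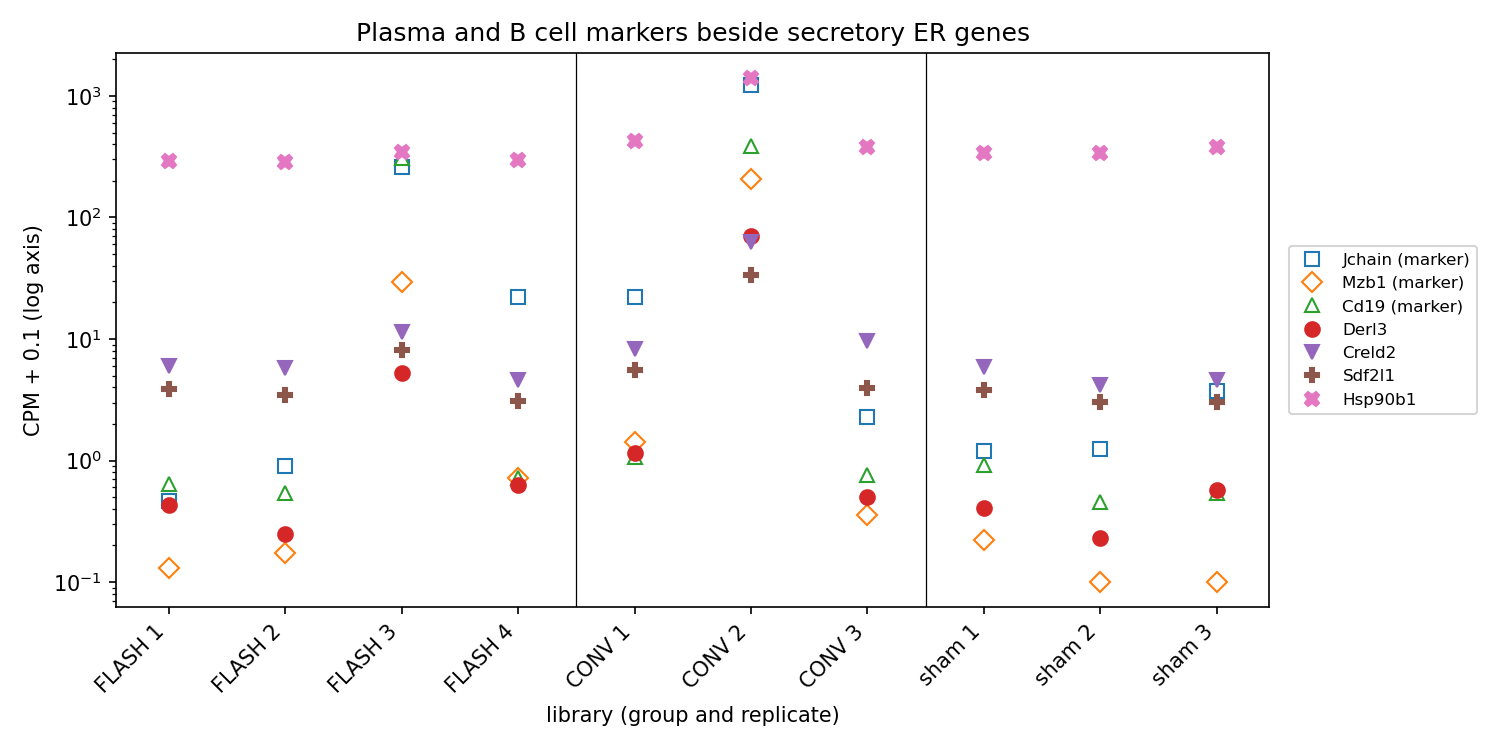
Points are CPM with 0.1 added, on a log axis, for 3 plasma and B cell markers (open) and 4 secretory ER genes (filled) in each library, with FLASH at the left, CONV in the middle and sham at the right. Derl3 reaches 70.5 CPM and Creld2 62.4 CPM in CONV replicate 2, where Jchain is 1241 CPM, and 5.13 and 11.4 CPM in FLASH replicate 3, where Jchain is 261 CPM.

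Across the family, the lymphocyte-rich pair did not look alike. In FLASH replicate 3, 4 members stood over 1 log2 unit above the sham mean (Derl3, Creld2, Sdf2l1 and Syvn1), 1 stood over 1 unit below it (Asns), and the median of the 33 members was −0.15. In CONV replicate 2, 15 stood over 1 unit above, Asns and Trib3 over 1 unit below, and the median was 0.84. The share of all genes so far from the sham mean, and the median over all genes, were not computed for either library. The 10 B cell markers summed to similar levels in both (2240 and 2650 CPM), whereas the 7 plasma cell markers summed to 456 CPM in FLASH replicate 3 and 1870 CPM in CONV replicate 2. Xbp1 was 0.892-fold the sham mean in the FLASH library and 3.44-fold in the CONV library, and Hsp90b1 0.983-fold and 3.97-fold. The 7 plasma cell markers summed to 91.0 and 45.1 CPM in CONV replicates 1 and 3, to 44.2 to 83.6 CPM in FLASH replicates 1, 2 and 4 and to 45.5 to 54.9 CPM in sham. Within these 8 libraries Jchain was 22.1 CPM in FLASH replicate 4 and in CONV replicate 1, against 1.09 to 3.66 CPM in sham. Mzb1 was 0.618 CPM in FLASH replicate 4 and 1.31 CPM in CONV replicate 1, against 0 to 0.121 CPM in sham. Of the other plasma cell markers, Irf4, Tnfrsf17 and Tnfrsf13b lay above the sham range in CONV replicate 1, and Sdc1 and Prdm1 within it. In FLASH replicate 4 Irf4 lay above that range, Sdc1, Prdm1 and Tnfrsf13b within it and Tnfrsf17 below it. The part of plasma cells in the family's values was not tested.

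FLASH against sham asks the same of the ultra-high dose rate. No member passed over all genes. The 14 chaperones had a median log2 fold change of −0.16 with 10 libraries and −0.15 with 8, the 7 degradation genes 0.11 and 0.14, and the 5 sensors and factors 0.15 and 0.03. The median log2 fold change of the 33 members was 0.00 with either set of libraries, against 0.03 over all genes with 10 libraries and −0.01 with 8. In both sets 16 members were positive, where 54.1% of all genes were with 10 libraries and 48.5% with 8. EdgeR called 0 of 33 members (0% of all genes), 1 had an unadjusted p under 0.05 (0.648% of all genes), and DESeq2 (0% of all genes) and limma voom called 0. With 8 libraries edgeR called 0 members (0% of all genes) with 4 at an unadjusted p under 0.05, all lower (2.52% of all genes, 1.32% higher and 1.2% lower), and DESeq2 (0.0262% of all genes) and limma voom called 0. Every FLASH library lay below every sham library for 6 members, where 2.45% of all genes did so. These were the chaperones Hspa5, Calr, Canx, Pdia3 and Pdia4, and Ssr1. Only Atf4 lay wholly above sham (2.46% of all genes), by 80.3 against 80.1 CPM at the nearest libraries. With 8 libraries 7 members lay wholly below sham (4.64% of all genes), with Hsp90b1 added, and 2 wholly above (5.14%), with Sel1l added.

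Pdia3, the disulfide isomerase that works with the lectin chaperones, stood at 174, 165, 162 and 149 CPM in FLASH, at 223, 274 and 209 CPM in CONV and at 200, 215 and 210 CPM in sham. FLASH lay wholly below both other groups, and CONV and sham overlapped. FLASH was lower than sham by a log2 fold change of −0.36 ± 0.15 with 10 libraries and −0.36 ± 0.10 with 8 (edgeR adjusted p = 0.998 and 1.00). Calr, the calcium-binding lectin chaperone, stood at 326, 346, 303 and 304 CPM in FLASH, at 487, 517 and 575 CPM in CONV and at 383, 430 and 443 CPM in sham. The 3 groups did not overlap, and the lymphocyte-rich libraries lay within the range of their own groups or just at its edge. FLASH against sham had −0.39 ± 0.17 with 10 libraries and −0.37 ± 0.12 with 8 (edgeR adjusted p = 0.998 and 1.00), and CONV against sham had 0.33 ± 0.19 and 0.33 ± 0.14 (edgeR adjusted p = 0.607 and 0.365).

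Canx, the membrane-bound lectin chaperone, stood at 328, 323, 275 and 318 CPM in FLASH, against 357, 345 and 353 CPM in sham. FLASH was lower in every library, by −0.18 ± 0.17 on the log2 scale (edgeR adjusted p = 0.998). Pdia6, a further disulfide isomerase, stood at 94.6, 87.6, 73.4 and 70.3 CPM in FLASH, at 92.4, 163 and 152 CPM in CONV and at 121, 94.1 and 92.1 CPM in sham. Its groups overlapped by a narrow margin, with a log2 fold change of −0.33 ± 0.23 in FLASH against sham (edgeR adjusted p = 0.998). Syvn1 had 0.57 ± 0.45 with 10 libraries and 0.35 ± 0.16 with 8 (edgeR adjusted p = 0.998 and 1.00), and all 7 degradation genes were positive with 8 libraries, with a median of 0.14.

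**Figure D4:**
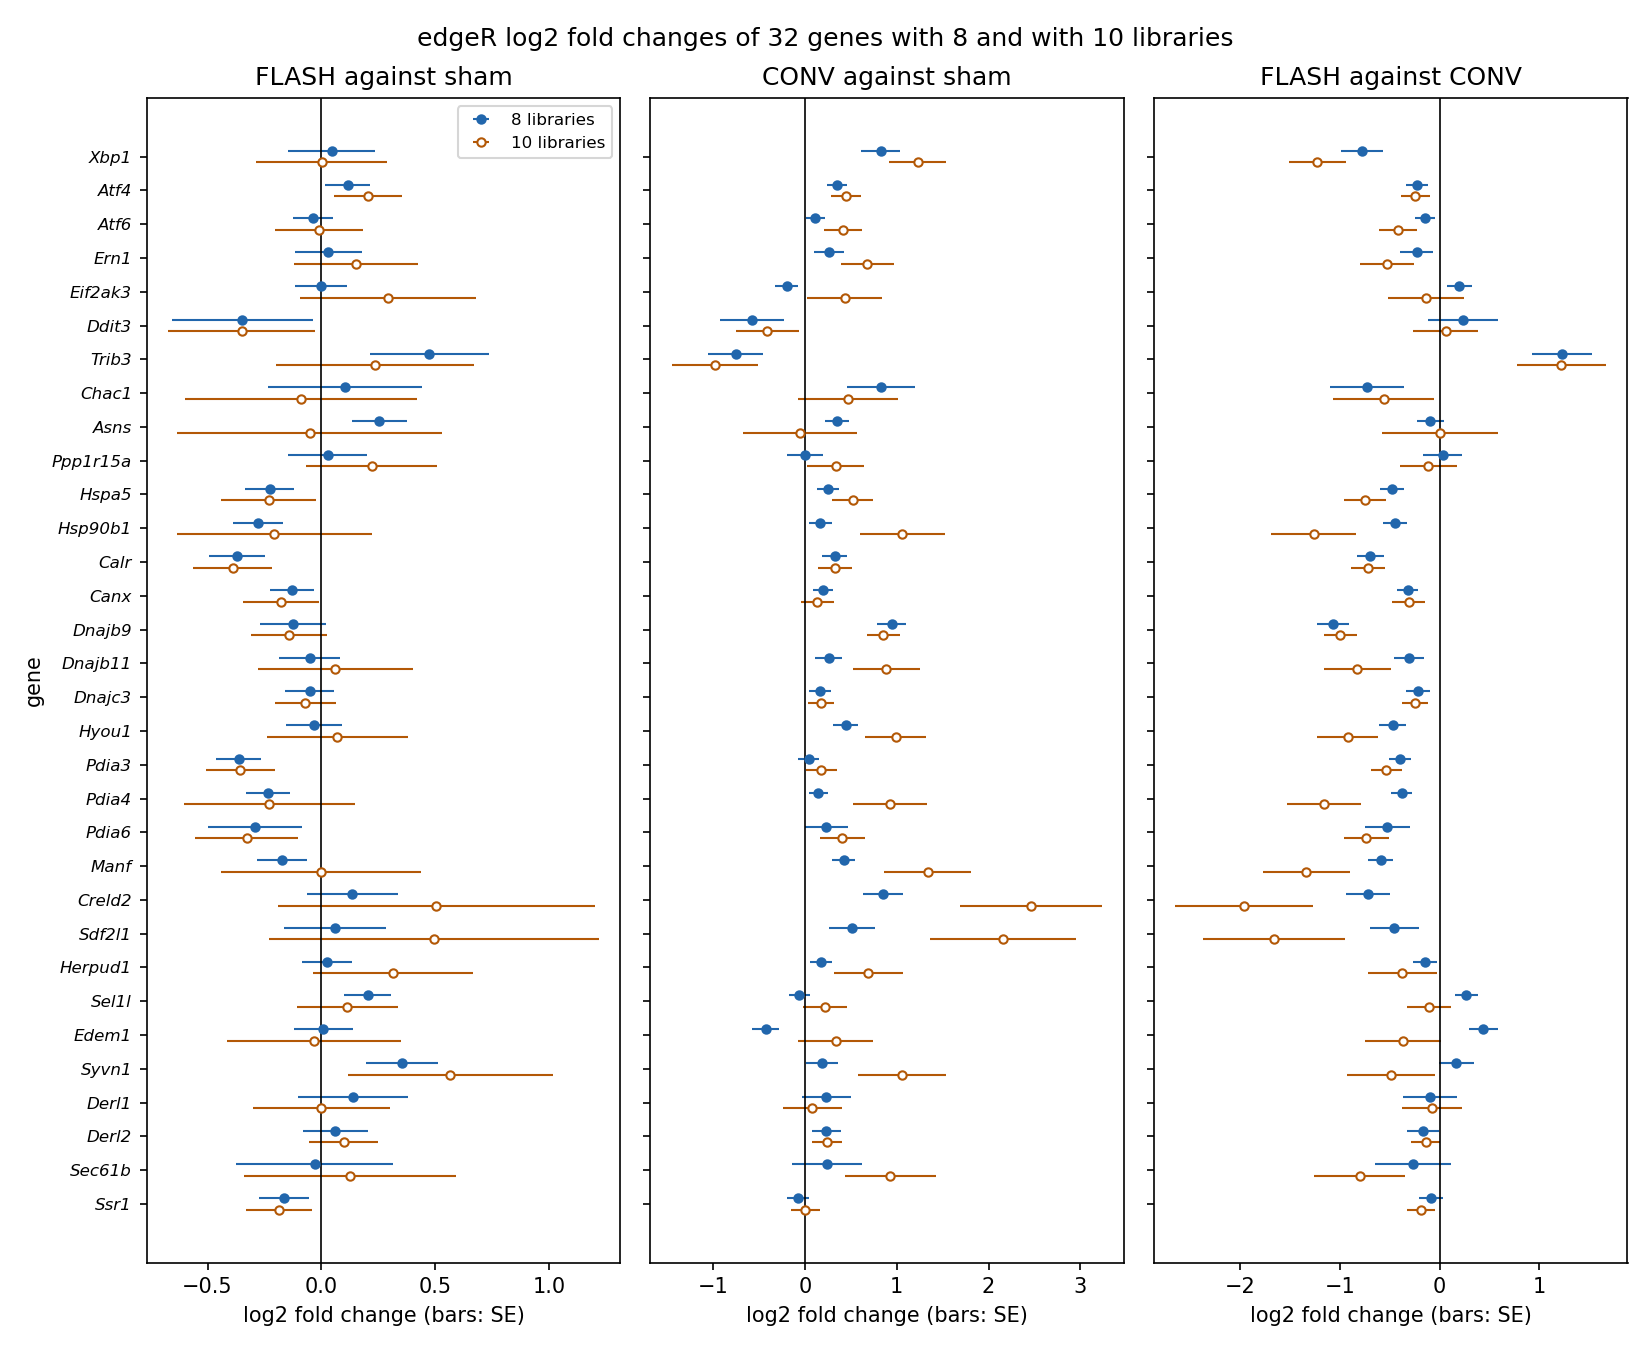
Log2 fold changes from edgeR with SE bars for 32 genes (Derl3 is left out for its range), with 1 panel per comparison. Filled points are fits with 8 libraries and open points fits with 10. Dnajb9 lies at 0.94 in CONV against sham and −1.07 in FLASH against CONV with 8 libraries, and chaperones lie left of 0 in FLASH against CONV in both sets.

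FLASH was compared with CONV to ask whether dose rate mattered at the same dose. All 14 chaperones and folding enzymes had negative log2 fold changes, with a median of −0.87 with 10 libraries and −0.46 with 8, and no member passed in edgeR. Over the 33 members 30 were negative with 10 libraries (median −0.53, against −0.04 over all genes) and 26 with 8 (median −0.27, against −0.02). EdgeR called 0 members with 10 libraries (0% of all genes), 1 higher and 14 lower members had an unadjusted p under 0.05 (2.97% of all genes, 1.43% higher and 1.53% lower), DESeq2 called 5 (0.262% of all genes) and limma voom 0. With 8 libraries edgeR called 0 (0.0131% of all genes), 2 higher and 11 lower had an unadjusted p under 0.05 (13.7% of all genes, 6.75% higher and 6.9% lower), DESeq2 called 10 (4.37%) and limma voom 0. Every FLASH library lay below every CONV library for 11 members, where 1.12% of all genes did so, and above for 0 members (1.13%). These were Xbp1, Atf6, Ssr1 and the chaperones Hspa5, Hsp90b1, Calr, Canx, Dnajb9, Dnajc3, Pdia3 and Pdia4. Without the pair FLASH lay wholly below CONV for 19 members (13.3% of all genes) and wholly above for 3 (12.8%), and 13 of the 14 chaperones were among the 19.

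Dnajb9 had a mean of 36.04 ± 4.45 CPM in FLASH and 71.9 ± 10.6 CPM in CONV, a log2 fold change of −0.996 ± 0.17 (edgeR adjusted p = 0.999, DESeq2 adjusted p = 0.000122). With 8 libraries it was −1.07 ± 0.16 (edgeR adjusted p = 0.0931, DESeq2 adjusted p = 6.27e-06). Calr had a mean of 320 ± 20.5 CPM in FLASH and 526 ± 44.9 CPM in CONV, which gave −0.72 ± 0.17 with 10 libraries and −0.70 ± 0.14 with 8 (edgeR adjusted p = 0.999 and 0.122). DESeq2 called Calr in both sets (adjusted p = 3.43e-06 and 0.000172). These genes differed by nearly the same amount with and without the lymphocyte-rich pair.

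Xbp1 had −1.23 ± 0.28 with 10 libraries and −0.78 ± 0.21 with 8 (edgeR adjusted p = 0.999 and 0.184, DESeq2 adjusted p = 0.0293 and 0.0267). Hspa5 had −0.75 ± 0.21 and −0.48 ± 0.12 (edgeR adjusted p = 0.999 and 0.163, DESeq2 adjusted p = 0.038 and 0.00475), and Pdia3 had −0.54 ± 0.15 and −0.40 ± 0.11 (edgeR adjusted p = 0.999 and 0.188, DESeq2 adjusted p = 0.0139 and 0.0309). For these genes the difference was smaller without the pair and kept its sign. Manf had −1.34 ± 0.44 with 10 libraries and −0.59 ± 0.12 with 8 (edgeR adjusted p = 0.999 and 0.138). The further DESeq2 calls with 8 libraries were Hsp90b1, Canx, Pdia4, Manf and Trib3. Trib3 was higher in FLASH, at 10.3 ± 3.60 CPM (SD, n = 3) against 4.42 ± 0.73 CPM in CONV (n = 2), a log2 fold change of 1.23 ± 0.30 (edgeR adjusted p = 0.163, DESeq2 adjusted p = 0.0112).

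Other genes of the same pathways were read from 5 lists. In CONV against sham with 8 libraries, edgeR called 0 genes of each list, 15 of their 135 genes had an unadjusted p under 0.05 (13.3% of all genes), and DESeq2 called 2 (4.33% of all genes). These shares are no higher than those over all genes, so the genes below are given as values and not as a result about the lists. Of 27 further folding and oxidation genes 13 were positive (median −0.01), 3 had an unadjusted p under 0.05 and all 3 were higher. Serp1, which protects nascent membrane proteins at the translocon, averaged 244 ± 2.43 CPM in CONV (SD, 2 libraries) and 158 ± 7.43 CPM in sham (3 libraries), with a log2 fold change of 0.61 ± 0.11 (edgeR adjusted p = 0.0924), and DESeq2 called it. Ero1lb, an oxidase that recharges the disulfide isomerases, had 0.40 ± 0.16 (edgeR adjusted p = 0.334). Of 34 further genes of ATF4 and the integrated stress response 19 were positive (median 0.08). Ppp1r15b, the constitutive counterpart of Ppp1r15a, had 0.73 ± 0.22 (edgeR adjusted p = 0.214), called by DESeq2, and the factor Atf5 had −0.55 ± 0.16 (edgeR adjusted p = 0.212).

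Of 27 translocon, signal peptidase and glycosyltransferase genes 20 were positive (median 0.09), and 23 with 10 libraries (median 0.23). Rpn1, a subunit of the oligosaccharyltransferase, had 0.35 ± 0.12 and Tram2, a translocon-associated protein, had −0.38 ± 0.15 (edgeR adjusted p = 0.264 and 0.322). With 10 libraries Tram2 was 0.53 ± 0.45 (edgeR adjusted p = 0.64), so its sign turned with the pair. Of 21 further degradation genes 14 were positive (median 0.06), with the ubiquitin-conjugating enzyme Ube2j1 at −0.43 ± 0.13 (edgeR adjusted p = 0.225) and Sel1l3 at 2.70 ± 0.90 (edgeR adjusted p = 0.261). Of 26 ER to Golgi transport genes 11 were positive (median −0.08), with the small GTPase Sar1b at 0.40 ± 0.12 and the coat subunit Sec24d at −0.48 ± 0.18 (edgeR adjusted p = 0.223 and 0.322). With 8 libraries the medians of these lists lay between −0.08 and 0.09. Those of the 14 chaperones stood at 0.25 and of the 5 sensors and factors at 0.26 in the same fit, where the median over all genes was 0.01. In FLASH against sham with 8 libraries the medians of the 5 further lists lay between −0.06 and 0.02, with 0 genes called by edgeR and DESeq2. In FLASH against CONV with 8 libraries DESeq2 called 4 of the 135 genes, a smaller share than the 4.37% of all genes. They were Phgdh, which starts serine synthesis, at 1.24 ± 0.27 (edgeR adjusted p = 0.152), and Serp1, Rpn1 and Sar1b at −0.50 ± 0.11, −0.56 ± 0.12 and −0.46 ± 0.12 (edgeR adjusted p = 0.148, 0.144 and 0.178). With 10 libraries 24 of the 27 translocon, signal peptidase and glycosyltransferase genes were negative and 3 positive in FLASH against CONV (median −0.32). Of them 7 had an unadjusted p under 0.05, all lower (2.97% of all genes, 1.53% lower). The medians of the other further lists lay between −0.15 and −0.03. Without the pair 9 of the 27 lay wholly below CONV (13.3% of all genes) and 0 wholly above (12.8%).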

How the data were processed

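The deposited files hold raw counts per gene symbol, which the authors gave without normalization, with 5 closing entries for reads given to no gene. Those entries held 52.0% to 69.6% of each file's total and were left out. The submitters' processing notes name kallisto 0.5.0 and mm10, while strand setting and annotation were not given in these sources. Per the labels' protocols, libraries were stranded total RNA after ribosomal depletion.

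Genes were kept by filterByExpr (15266 with 10 libraries, 15252 with 8), scaled by TMM and tested with edgeR 4.0.16 (quasi-likelihood, robust, 1 mean per group, R 4.3.3). Two-sided p-values had Benjamini-Hochberg adjustment over all genes, with calls under 0.05, and SE is the log2 fold change over the root of F. DESeq2 1.42.0, limma 3.58.1 voom, RLE and upper-quartile scaling, no filter, a mean of 50 counts, a replicate block and leaving out each library were alternatives. The steps were tested on data simulated with large changes and a fixed spread, which says nothing about the power to find smaller changes. Members, lists and alternatives were chosen with earlier results of these data known. Library values use the scaling of 10 libraries. Exon lengths and overlaps came from GENCODE M21 and promoters from RefSeq (GRCm38.p6), of which 25 of 30 member windows matched a transcript in the sense direction and 0 in the antisense. Named genes were 6 fixed members, the 5 members with the smallest p in each comparison and set, and 2 genes per further list with the smallest p in CONV against sham with 8 libraries.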

Additional observations from a re-analysis of the deposited data

Results flagged for a closer look

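In the FLASH group 4 of the 33 members had 1 library far from the other 3, in each case the lymphocyte-rich replicate 3. Only the FLASH group was searched in this way, and the share of all genes so marked was not counted. Eif2ak3 stood at 78.7 CPM there against 39.7 to 43.8 CPM in the others, Herpud1 at 94.1 CPM against 50.2 to 51.1 CPM, Sdf2l1 at 7.99 CPM against 2.97 to 3.79 CPM and Derl3 at 5.13 CPM against 0.146 to 0.525 CPM. Dixon's test at the 95% level, which marked them, marks about 1 in 20 groups by chance, and the 4 gaps share 1 library, so they are not separate events. B cell markers summed to 2240 CPM in that library, and their part in these values was not tested.

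For 5 of the 33 members, all chaperones, every FLASH library lay below the sham mean and every CONV library above it. The share of all genes with this pattern was not counted. The difference between FLASH and CONV was tested directly and did not pass in edgeR with 10 libraries. The log2 fold changes of FLASH against CONV were −0.75 for Hspa5, −1.26 for Hsp90b1, −0.72 for Calr, −0.54 for Pdia3 and −1.16 for Pdia4 (edgeR adjusted p = 0.999 each).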

How the results depend on the processing

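Of 1188 alternative values of the 41 fold changes printed, 29 changed sign and 35 passed the threshold where the 10-library edgeR fit did not, 18 of them in DESeq2 with 8 libraries. The sign changes were in CONV against sham. Edem1 turned from 0.33 to −0.43 with 8 libraries (−0.42 in DESeq2, −0.44 in limma voom, −0.43 with the replicate block). On leaving out a library, from the 10 or from the 8, it spanned −0.61 to 0.62, with −0.61 without the pair and CONV replicate 1. Tram2 turned from 0.53 to −0.38 (−0.37, −0.38 and −0.36), and spanned −0.48 to 0.83 on leaving out a library in the same way. Ube2j1, at −0.02, spanned −0.54 to 0.16 in such fits. Genes called in CONV against sham numbered 0 in edgeR, 66 in DESeq2, 6 with 8 libraries, and 661 (DESeq2) and 4 (limma voom) with 8 libraries. In FLASH against CONV they numbered 0, 40, 2, 667 and 3, and in FLASH against sham 4 in DESeq2 with 8 libraries. Leaving out a library gave 0 to 1134 in CONV against sham and 0 to 1025 in FLASH against CONV, the highest without the pair and CONV replicate 1, and 138 and 86 without the pair and CONV replicate 3. In these fits the lone CONV library takes the spread of the rest. Members called numbered 2 in DESeq2 and 3 in DESeq2 with 8 libraries for CONV against sham, and 5 and 10 for FLASH against CONV. Leaving out a library gave 0 to 3 and 0 to 4, the highest without the pair and CONV replicate 1 (Dnajb9, Hyou1 and Xbp1, and Calr besides in FLASH against CONV). The members' median in CONV against sham was 0.45 with 10 libraries, 0.23 with 8, and 0.22 with limma voom and 0.22 with the replicate block on those 8. On leaving out a library from the 10 or from the 8 it was 0.15 to 0.62, with 0.15 without the pair and CONV replicate 3. In FLASH against CONV the median was −0.53, and −0.27 with 8 libraries (−0.27 in DESeq2, −0.24 in limma voom, −0.27 with the replicate block). On leaving out a library in the same way it was −0.65 to −0.19, with −0.19 without the pair and CONV replicate 3. Leaving out CONV replicate 2 alone gave 0.25 and −0.22. Libraries of the same replicate number had correlations of deviations of −0.76 to 0.26, and 0 of 10 libraries were closest to their own number. The deviations were taken from group means that include the lymphocyte-rich pair, whose 2 libraries correlated at 0.90. These correlations therefore cannot decide whether replicate numbers pair the samples. The replicate block gave 0 members called in each comparison. The cause of these shifts was not tested. Precision is limited by the spread between libraries, a biological coefficient of variation of 0.543 with 10 libraries and 0.284 with 8.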
